A study of Mus musculus with 8 samples.

Results

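The genes described here are the haemoglobin genes of adult mouse red cells and the erythroid enzyme of haem synthesis, 5 genes named by symbol out of the 25834 in the count table. They are *Hba-a1* and *Hba-a2* (adult alpha-globin), *Hbb-bs* and *Hbb-bt* (adult beta-globin) and *Alas2*. They were chosen as a gauge of residual blood in the tissue, and all 5 passed the filter on low counts, which left 16251 genes for testing. Hippocampal RNA from 4 control and 4 SAP97-cKO male mice had been sequenced to compare transcript levels between the genotypes. SAP97 is the synaptic scaffold protein encoded by *Dlg1*. The SAP97-cKO mice were Nestin-cre+/-; SAP97fl/fl, so that Cre recombinase driven by the Nestin promoter removes the floxed allele in cells of the neural lineage, while blood cells arise outside that lineage. In the study, littermates carrying Nes-cre+/-, SAP97fl/fl or neither were pooled as controls, and the labels do not say which of these genotypes each control library had. The study took brain tissue for western blots at 2 months of age and checked SAP97 protein in each sequenced animal by western blot, but does not state an age for the sequenced tissue itself.

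As background, haemoglobin is a tetramer of alpha-globin and beta-globin chains, each of which holds a haem group that carries oxygen. The globin chains are made in erythroid precursors in bone marrow, and red cells that have lost their nucleus still carry globin transcripts for a time after they enter the circulation. Brain tissue that keeps blood in its vessels at dissection therefore contributes globin RNA, and low globin transcript levels have also been described in neurons and glia.

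Each library held between 37388177 and 37426572 counts after resampling to a common depth by the authors, so raw counts can be set side by side between libraries. *Dlg1* counts were 4126, 4566, 4101 and 4833 in control replicates 1 to 4 and 2311, 3079, 2116 and 1935 in SAP97-cKO replicates 1 to 4. All SAP97-cKO libraries thus lay below all control libraries for the targeted gene, as their labels say. The 9 hippocampal neuron markers, led by *Camk2a*, *Slc17a7* and *Gad1*, summed to between 248573 and 315395 counts in each library. The labelled tissue was thus represented by its markers in all 8. The lowest of the 8 sums was that of control replicate 4, beside 251426 to 274398 counts in the other controls. Control replicate 4 stood apart from the other controls over all genes. The chi-square per gene between pairs of libraries was 58.73 to 69.24 for control replicate 4 with each other control, 14.25 to 32.78 among control replicates 1 to 3 and 9.718 to 43.83 among SAP97-cKO libraries. Its mitochondrial genes held 4.49% of counts, against 3.73% to 3.99% in the other controls and 3.76% to 4.93% in SAP97-cKO. That library was also the highest for each of the 5 genes, and the differences of the 5 genes, their sum, the alpha to beta ratio and the correlations are given with and without it.

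The beta-globin genes lie on chromosome 7 on the minus strand, *Hbb-bs* (ENSMUSG00000052305) at chr7:103826534-103828096 and *Hbb-bt* (ENSMUSG00000073940) at chr7:103812524-103813996 of GRCm38, 12.5 kb apart, and the first annotated transcript of each has 3 exons. *Hbb-bs* had 1231, 1566, 1481 and 2989 counts in control replicates 1 to 4 and 977, 1490, 1413 and 926 counts in SAP97-cKO replicates 1 to 4. Control replicate 4 was the highest library, SAP97-cKO replicates 1 and 4 were the lowest, and SAP97-cKO replicates 2 and 3 fell within the range of the controls, so the groups overlapped. The group means were 1817 ± 794 counts in control and 1202 ± 291 counts in SAP97-cKO (SD, n = 4 each). On the log2 scale *Hbb-bs* was -0.55 ± 0.26 (SE) in SAP97-cKO relative to control, with an adjusted p of 0.435 by the edgeR quasi-likelihood test with Benjamini-Hochberg adjustment. The exact two-sided permutation test over the 70 assignments of libraries gave p = 0.171, where the smallest possible value is 0.0286. Without control replicate 4 the log2 difference of *Hbb-bs* was -0.21 ± 0.17, with an adjusted p of 0.628 by edgeR.

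*Hbb-bt*, the second adult beta-globin gene, had lower counts than *Hbb-bs* in every library. Its counts were 269, 344, 304 and 644 in control replicates 1 to 4 and 190, 312, 233 and 150 in SAP97-cKO replicates 1 to 4. Here 3 of the 4 SAP97-cKO libraries lay below the lowest control, and SAP97-cKO replicate 2 lay among the controls. Mean counts were 390.2 ± 172 in control and 221 ± 69.4 in SAP97-cKO (SD, n = 4 each). The log2 difference, SAP97-cKO minus control, was -0.77 ± 0.29 (SE; edgeR adjusted p = 0.371; exact permutation p = 0.0857). This was the largest difference among the 5 genes, and it was -0.43 ± 0.21 without control replicate 4 (edgeR adjusted p = 0.455).

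**Figure D1:**
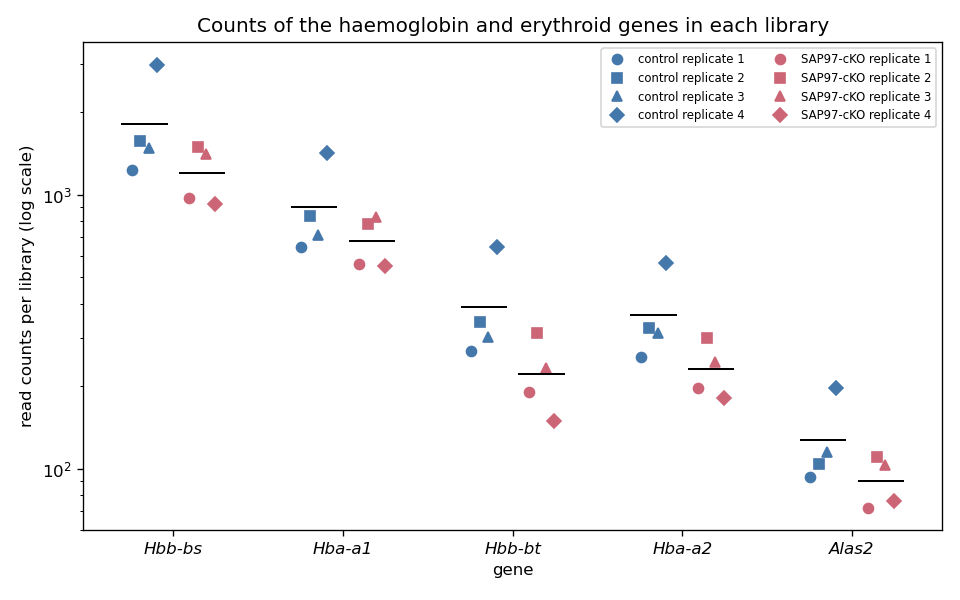
Read counts of each gene (horizontal axis) in each of the 8 libraries (vertical axis, log scale), with controls in blue, SAP97-cKO in red, symbols for replicate numbers and black bars for group means. Control replicate 4 is the highest point for each of the 5 genes, for example 2989 counts for Hbb-bs, and the remaining controls overlap the SAP97-cKO libraries.

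The alpha-globin genes lie 12.0 kb apart on chromosome 11 on the plus strand, *Hba-a1* (ENSMUSG00000069919) at chr11:32283511-32284465 and *Hba-a2* (ENSMUSG00000069917) at chr11:32296489-32297298, again with 3 exons in the first transcript of each. *Hba-a1* had 646, 840, 711 and 1423 counts in control replicates 1 to 4 and 558, 781, 831 and 551 counts in SAP97-cKO replicates 1 to 4. SAP97-cKO replicates 2 and 3 were above control replicates 1 and 3, and the highest value was again that of control replicate 4. The means were 905 ± 355 counts in control and 680.2 ± 147 counts in SAP97-cKO (SD, n = 4 each), a log2 difference of -0.37 ± 0.24 (SE; edgeR adjusted p = 0.539; exact permutation p = 0.343). With control replicate 4 left out the difference was -0.07 ± 0.16 (edgeR adjusted p = 0.890), which was smaller than its standard error.

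For *Hba-a2* the counts were 255, 327, 313 and 562 in control replicates 1 to 4 and 197, 300, 245 and 181 in SAP97-cKO replicates 1 to 4. SAP97-cKO replicate 2 lay above control replicate 1, and the other SAP97-cKO libraries lay below all controls. The mean was 364 ± 136 counts in control and 231 ± 53.6 counts in SAP97-cKO (SD, n = 4 each). The log2 difference was -0.61 ± 0.24 (SE; edgeR adjusted p = 0.383; exact permutation p = 0.0571), and -0.33 ± 0.17 without control replicate 4 (edgeR adjusted p = 0.468).

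*Alas2* (ENSMUSG00000025270; chrX:150547375-150570638, plus strand, 11 exons in the first transcript) encodes the erythroid form of 5-aminolevulinate synthase, the enzyme of the first step of haem synthesis. It had 93, 104, 115 and 198 counts in control replicates 1 to 4 and 72, 110, 103 and 76 counts in SAP97-cKO replicates 1 to 4. The pattern resembled that of the globin genes, with control replicate 4 highest, SAP97-cKO replicates 1 and 4 lowest and the groups overlapping. Means were 127.5 ± 47.9 counts in control and 90.2 ± 19.1 counts in SAP97-cKO (SD, n = 4 each), a log2 difference of -0.45 ± 0.25 (SE; edgeR adjusted p = 0.483; exact permutation p = 0.200). Without control replicate 4 the difference of *Alas2* was -0.17 ± 0.19 (edgeR adjusted p = 0.753).

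At the false discovery rate of 0.25 that the study used, 0 of the 5 genes passed in either direction by edgeR, beside 48 of the 16251 genes tested (0.295%), 46 of them lower in SAP97-cKO (0.283%). *Hba-a2* and *Hbb-bt* were lower at an unadjusted p under 0.05, beside 1139 genes lower at that level (7.01%). In 0 of the 5 did all SAP97-cKO libraries lie below all controls in CPM (counts for every 1000000 counts of a library), beside 855 of all genes tested (5.26%). By limma-voom 0 of the 5 passed, beside 48 of 16251 genes lower and 2 higher. By DESeq2 *Hba-a2* and *Hbb-bt* passed (adjusted p = 0.215 and 0.163), both lower, beside 588 of 15293 genes lower (3.84%). With control replicate 1 left out *Hba-a2*, *Hbb-bs* and *Hbb-bt* passed by edgeR (adjusted p = 0.208, 0.246 and 0.210). All were lower, beside 960 of 16469 genes lower (5.83%). With control replicate 4 left out 0 of the 5 passed by edgeR, beside 29 of 16434 genes lower and 3 higher. At an unadjusted p under 0.05 that fit also had 0 of the 5, beside 1184 genes lower and 778 higher. The number of red cells and the RNA per red cell cannot be told apart in these bulk libraries. The cause of the differences, globin RNA of brain cells included, was not tested.

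The position of control replicate 4 was measured against the other controls over all genes tested. Its counts were 2.10 times the mean of the other 3 controls for *Hbb-bs*, 2.11 times for *Hbb-bt*, 1.94 times for *Hba-a1*, 1.88 times for *Hba-a2* and 1.90 times for *Alas2*. All 5 genes were therefore raised in that library by a similar factor. On the log2 scale 89 of the 16251 genes tested had a larger excess in control replicate 4 than *Hbb-bs* (0.548%), and 177 had a larger excess than *Alas2* (1.09%). The SD among controls of log2 CPM was larger than that of *Hbb-bs* in 7.24% of the genes tested.

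Levels were compared between the genes per kilobase of exon. In control the level was 63.2 ± 27.7 CPM per kilobase for *Hbb-bs*, 29.8 ± 11.7 for *Hba-a1*, 14.8 ± 6.54 for *Hbb-bt*, 14.6 ± 5.44 for *Hba-a2* and 1.42 ± 0.533 for *Alas2* (SD, n = 4). In SAP97-cKO the same quantity was 41.8 ± 10.1 for *Hbb-bs*, 22.4 ± 4.83 for *Hba-a1*, 8.41 ± 2.64 for *Hbb-bt*, 9.25 ± 2.15 for *Hba-a2* and 1.00 ± 0.212 for *Alas2* (SD, n = 4). Within libraries *Hbb-bs* was above *Hba-a1* in 8 of 8, at 1.78 to 2.22 times its level. *Hba-a1* was above *Hba-a2* in 8 of 8, at 1.87 to 2.79 times. The SDs between libraries, which do not measure these differences within libraries, overlapped for both pairs in control. *Hba-a2* was 0.92 to 1.27 times *Hbb-bt*, and the higher in 6 of 8 libraries. By mean level per length *Hbb-bs* ranked 841 and *Alas2* ranked 11585 among the 25696 genes with an annotated length.

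The copies within each globin pair are near identical, so reads may have been divided between them in the authors' counting, and values of single copies are uncertain. Over their coding sequences of 426 bases *Hba-a1* and *Hba-a2* differed at 1 position (99.8% identity), C381T, where positions are counted from the A of the start codon and the *Hba-a1* base is given first. *Hbb-bs* and *Hbb-bt* also differed at 1 of 441 coding positions (99.8% identity), C417T, with the *Hbb-bs* base first. Of the 50-base windows of the first annotated transcript, 67.5% of those of *Hba-a1* were found unchanged in *Hba-a2* and 86.9% the other way round. The same share was 65.8% for *Hbb-bs* in *Hbb-bt* and 58.3% the other way round, so most windows of either copy could not be assigned by sequence. The stretch of coding sequence around each difference is shown because it is the only coding position at which a read can tell the copies apart, with the differing base in capitals (GENCODE transcripts, coding positions 351 to 410 for alpha and 382 to 441 for beta).
Hba-a1: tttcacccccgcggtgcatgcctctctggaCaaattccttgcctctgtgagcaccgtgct
Hba-a2: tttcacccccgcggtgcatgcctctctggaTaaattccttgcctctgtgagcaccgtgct
Hbb-bs: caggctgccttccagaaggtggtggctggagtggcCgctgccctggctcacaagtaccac
Hbb-bt: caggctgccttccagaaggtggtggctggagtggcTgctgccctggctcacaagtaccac

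Sums over both copies are less affected by how reads are divided. The 4 haemoglobin genes together had 64.2, 82.2, 75.1 and 150.3 CPM in control replicates 1 to 4 and 51.4, 77.1, 72.8 and 48.3 CPM in SAP97-cKO replicates 1 to 4. The highest library was 3.11 times the lowest, and SAP97-cKO replicates 2 and 3 lay among control replicates 1 to 3. The mean summed level was 92.9 ± 38.9 CPM in control and 62.4 ± 14.6 CPM in SAP97-cKO (SD, n = 4 each), a difference of -30.6 that was smaller than the SD of the controls. Control replicates 1 to 3 alone had a mean of 73.8 ± 9.09 CPM (SD, n = 3), which left a difference of -11.4.

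The ratio of alpha-globin to beta-globin counts was 0.601, 0.611, 0.574 and 0.546 in control replicates 1 to 4 and 0.647, 0.600, 0.654 and 0.680 in SAP97-cKO replicates 1 to 4. Control replicate 4, the library with the highest haemoglobin sum, had the lowest ratio, and SAP97-cKO replicate 4, with the lowest sum, had the highest. The mean was 0.583 ± 0.0290 in control and 0.645 ± 0.0335 in SAP97-cKO (SD, n = 4 each), a difference of 0.0623, and of 0.0501 with control replicate 4 left out. The groups overlapped through SAP97-cKO replicate 2. The haemoglobin sum and this ratio are given as descriptions.

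The division of counts between copies also varied. *Hba-a1* made up 71.7%, 72.0%, 69.4% and 71.7% of alpha-globin counts in control replicates 1 to 4 and 73.9%, 72.2%, 77.2% and 75.3% in SAP97-cKO replicates 1 to 4. All SAP97-cKO libraries were above all controls for this share, by as little as 72.2% against 72.0%. How often shares of other gene pairs separate the groups is not given here. *Hbb-bs* made up between 82.0% and 83.0% of beta-globin counts in control and between 82.7% and 86.1% in SAP97-cKO, with overlap between the groups. *Alas2* had between 33.8 and 42.0 counts for every 1000 haemoglobin counts in the 8 libraries, and the lowest and highest values were those of control replicate 2 and SAP97-cKO replicate 4. Neither share nor the *Alas2* quotient was tested.

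**Figure D2:**
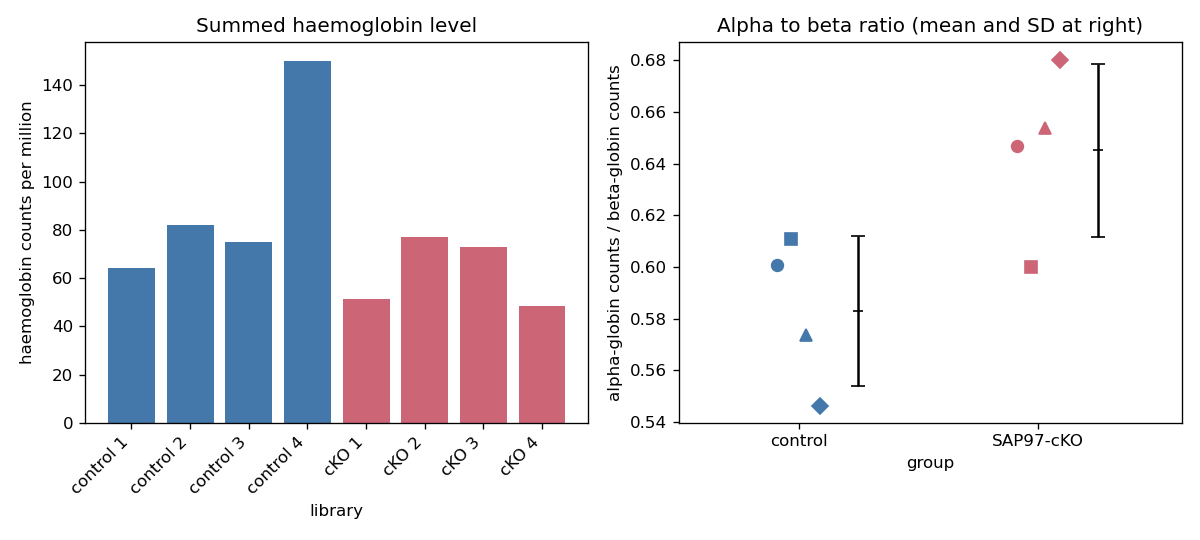
Left, summed CPM of the 4 haemoglobin genes (vertical axis) in each library, controls in blue and SAP97-cKO in red; right, the ratio of alpha-globin to beta-globin counts (vertical axis, not starting at 0) with 1 symbol per library and the mean with SD beside each group. Control replicate 4 reaches 150.3 CPM, and the ratios of the groups, 0.583 and 0.645 on average, overlap through SAP97-cKO replicate 2.

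The 5 genes were set against each other over the 8 libraries. For the 10 pairs, Pearson's r of log2 CPM was between 0.909 (*Hba-a1* with *Hbb-bt*) and 0.992 (*Hba-a2* with *Hbb-bt*), given as a description over libraries of both groups. Spearman's rho was between 0.714 and 0.976. *Alas2*, which is not a globin gene and lies on another chromosome, had an r of 0.986 with *Hbb-bs* (rho = 0.810) and of 0.954 with *Hba-a1* (rho = 0.786). The correlations rested in part on control replicate 4. When the 2 libraries farthest from the median of the first gene were left out, control replicate 4 and either SAP97-cKO replicate 1 or 4, r was 0.684 for *Hba-a1* with *Hbb-bt*, the lowest, and 0.948 for *Hbb-bs* with *Alas2*. Without control replicate 4 alone, r was between 0.743 and 0.980 over the 10 pairs, and Spearman's rho between 0.571 and 0.964.

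The promoters of these genes are shown as background on the genes. Their part in the shared movement of the 5 genes across libraries was not tested. All 5 matched an entry of the RefSeq promoter sequences (GRCm38.p6), and the 120 bases before each RefSeq start were searched on both strands for the letters at the core of 4 known elements. These were TATAA for the TATA box, CCAAT for the CCAAT box, CACCC for the box bound by Klf1-like factors and GATA for the site of GATA factors. In the sequences that follow, written 5′ to 3′ on the strand of the gene, capitals mark matches in either orientation, and no matches of different motifs overlapped. The *Hba-a1* window is not shown, since it was identical to that of *Hba-a2* at 117 of 117 aligned bases. *Hbb-bs* and *Hbb-bt* were identical at 91 of 120 aligned bases (75.8%). GENCODE exons of longer transcripts cover all 120 bases of the window of *Hba-a1* and reach 3 bases into the window of *Hba-a2*, 37 into that of *Hbb-bs*, 73 into that of *Hbb-bt* and 42 into that of *Alas2*. The windows lie at chr11:32296372-32296491 (plus strand), chr7:103827929-103828048 and chr7:103813924-103814043 (minus strand) and chrX:150547297-150547416 (plus strand).
Hba-a2: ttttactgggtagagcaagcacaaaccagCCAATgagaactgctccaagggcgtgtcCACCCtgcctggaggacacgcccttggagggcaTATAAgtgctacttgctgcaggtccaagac
Hbb-bs: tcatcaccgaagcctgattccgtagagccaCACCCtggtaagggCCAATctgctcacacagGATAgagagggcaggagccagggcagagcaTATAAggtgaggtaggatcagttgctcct
Hbb-bt: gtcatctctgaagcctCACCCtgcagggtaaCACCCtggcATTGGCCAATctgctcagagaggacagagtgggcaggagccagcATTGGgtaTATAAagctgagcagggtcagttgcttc
Alas2: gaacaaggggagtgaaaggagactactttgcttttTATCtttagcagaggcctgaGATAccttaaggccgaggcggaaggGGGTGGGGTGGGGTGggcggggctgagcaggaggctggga

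Each of the 4 globin windows held TATAA, with its first base 27 to 30 bases before the start, together with CCAAT and CACCC. GATA was found in the windows of *Hbb-bs* (1 match) and *Alas2* (2 matches), and *Alas2* held 3 matches to CACCC and 0 to TATAA or CCAAT. Among all 32851 RefSeq promoters, windows of the same length held TATAA in 11.8%, CCAAT in 21.3%, CACCC in 31.7% and GATA in 29.5%, and all 4 in 0.207%. *Hbb-bs* was the only 1 of the 5 with all 4. Matches to letters this short are a description of the sequence and not evidence of binding.

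The other globin genes were described in the same way. Of 9 listed, 6 were in the table and 2 passed the filter, with 0 past the threshold in either direction by edgeR and 0 at an unadjusted p under 0.05. *Cygb* (cytoglobin, of fibroblast-like cells) had 2497 ± 195 counts in control and 2302 ± 206 in SAP97-cKO, and *Ngb* (neuroglobin, of neurons) had 120 ± 35.0 and 127.5 ± 69.9 counts (SD, n = 4 each). *Mb* (myoglobin) had between 5 and 19 counts in each library, with a mean of 13.8 ± 6.08 in control and 7.0 ± 1.41 in SAP97-cKO (SD, n = 4 each; not tested). *Hbq1a* (theta-globin) had 13, 2, 0 and 17 counts in control replicates 1 to 4 and 2, 4, 8 and 4 in SAP97-cKO replicates 1 to 4. *Hbq1b*, the other theta-globin gene, had 1, 5, 1 and 1 counts in control and 1, 10, 1 and 3 in SAP97-cKO. Control replicate 4 was thus the highest library for *Hbq1a*, at few counts, and not for *Hbq1b*, *Cygb*, *Ngb* or *Mb*. The median log2 difference of the 2 genes tested was 0.03, and 0.05 without control replicate 4. The embryonic *Hbb-y* had 0 counts in 7 libraries and 1 count in SAP97-cKO replicate 4, and *Hba-x*, *Hbb-bh1* and *Hbb-bh2* were not analysed here.

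Haem synthesis outside the erythroid lineage starts with *Alas1*, which had 2052, 2201, 2095 and 2008 counts in control replicates 1 to 4 and 1897, 1878, 2088 and 2122 in SAP97-cKO replicates 1 to 4. Control replicate 4 was the lowest control for *Alas1*, while it was the highest library for *Alas2*. Per length, *Alas1* averaged 8.84 CPM per kilobase over the 8 libraries and *Alas2* 1.21. Of the 14 genes of the haem synthesis list, led by *Fech*, *Cpox* and *Slc25a39*, 0 passed by edgeR, with *Slc25a39* lower at an unadjusted p under 0.05, and the median log2 difference was -0.07 beside -0.01 for all genes tested (-0.02 for the list without control replicate 4). The summed counts of the list were between 18020 and 20129 in control and between 17294 and 17916 in SAP97-cKO.

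Genes of erythroid transcription and erythropoietin signalling ranged from between 0 and 5 counts in each library for *Nfe2* to between 3144 and 4198 counts for *Bcl11a*. *Klf1*, the erythroid Krüppel-like factor, had between 3 and 8 counts in each library. Of the 7 listed genes in the table, 5 were tested, led by *Bcl11a*, *Zfpm1* and *Lmo2*, and 0 passed by edgeR (0 at an unadjusted p under 0.05), with a median log2 difference of 0.16, and 0.17 without control replicate 4. In control replicate 4 *Bcl11a* (3144 counts) was the lowest of the 8 libraries, *Zfpm1* (1047 counts) was the lowest control and *Lmo2* (552 counts) was the highest library. *Tal1* had 89 counts in control replicate 4, against 45 to 60 in the other controls. Its highest library was SAP97-cKO replicate 2, with 137 counts. The 7 genes summed to 4987 counts in control replicate 4, the lowest library, and to between 5086 and 6409 in the others. *Bcl11a* held 29590 of their 45490 counts over the 8 libraries, so this sum mainly follows *Bcl11a*. *Gata1* and *Gfi1b* were not analysed here.

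The genes that define red cells were near 0, with fewer than 10 counts in every library for 9 of the 11 in the table. *Slc4a1* (band 3, the anion exchanger) had 2, 5, 5 and 10 counts in control replicates 1 to 4 and 1, 11, 6 and 6 in SAP97-cKO replicates 1 to 4. Control replicate 4 was thus the highest control for *Slc4a1*, by 5 counts, and SAP97-cKO replicate 2 the highest library. *Ermap* had between 7 and 21 counts and *Epb42* (protein 4.2) between 0 and 9. *Rhd* had between 0 and 7, *Kel* and *Tspo2* between 0 and 5, *Trim58* between 0 and 3, *Trim10* between 0 and 2 and *Hemgn* between 0 and 1. Summed over the 11 genes in the table, the counts were 33, 23, 40 and 36 in control replicates 1 to 4 and 24, 38, 30 and 31 in SAP97-cKO replicates 1 to 4, so this sum did not follow the haemoglobin sum. Over all 8 libraries there were 23240 haemoglobin counts and 255 counts of these 11 genes, a quotient of 91.1. *Ermap* alone passed the filter (log2 difference 0.09 ± 0.36, SE; edgeR adjusted p = 0.932), and *Rhag* and *Ahsp* were not analysed here.

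Most of the listed red cell genes that brain cells also express were abundant. Of 18 tested, with *Add2* and *Sptb* among the most abundant, 0 passed by edgeR, 2 were lower and 1 higher at an unadjusted p under 0.05, and the median log2 difference was 0.000349, and -0.00594 without control replicate 4. Of the 11 genes tested for the clearance of haemoglobin, haem and iron, led by *Fth1*, *Lrp1* and *Ftl1*, 0 passed by edgeR (0 at an unadjusted p under 0.05), with a median of -0.11, and -0.08 without control replicate 4. *Fth1* (ferritin heavy chain) was highest in control replicate 4 at 86389 counts, against 65070 to 72335 in the other controls and 55286 to 72322 in SAP97-cKO. *Ftl1* was also highest there at 8723 counts, against 6277 to 7102 in the other 7 libraries. *Lrp1* (a receptor for haem bound to haemopexin) was lowest there at 6799 counts, against 11049 to 13704 in the other 7 libraries. The sum of the list was highest in control replicate 4 at 111534 counts, against 81581 to 100166 in the other 7 libraries. *Fth1* held 550163 of the 762108 counts of the list over the 8 libraries.

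Markers of other blood cells were taken list by list. The 7 neutrophil genes in the table summed to 25, 24, 25 and 49 counts in control replicates 1 to 4 and 15, 16, 18 and 16 counts in SAP97-cKO replicates 1 to 4. Control replicate 4 was again the highest library, at 1.99 times the mean of the other controls, and all SAP97-cKO libraries lay below all controls. Such separation was found in 5.26% of single genes tested, in CPM. None of the 7 passed the filter, 4 had fewer than 10 counts in every library, and the most abundant were *S100a9* with 54 counts and *S100a8* with 37 over the 8 libraries, followed by *Mpo* with 36. The part of neutrophil RNA in the differences of the globin genes was not tested. Platelet genes, led by *Gp1bb*, *Gp5* and *Itga2b*, summed to between 289 and 379 counts (median log2 difference -0.09, and -0.16 without control replicate 4), and lymphocyte genes to between 339 and 673, of which *Ighm* held 3680 of 3830 over the 8 libraries, with *Cd79b* and *Cd79a* next. In control replicate 4 the platelet sum was 332 counts, 0.96 times the mean of the other controls. The lymphocyte sum there was 531 counts, 1.01 times that mean. Of the 5 platelet genes and the 1 lymphocyte gene tested, 0 passed by edgeR, with 0 at an unadjusted p under 0.05. Of the monocyte list *Fn1* (1144 to 2348 counts in each library), *Ccr2* (2 to 18) and *Chil3* were the most abundant, and *Fn1* and *Ccr2*, the 2 tested, were lower at an unadjusted p under 0.05 (edgeR adjusted p = 0.400 and 0.338). *Fn1* is also made by vessel and meningeal cells. *Chil3* had 1, 1, 0 and 13 counts in control replicates 1 to 4 and 0, 0, 3 and 0 in SAP97-cKO replicates 1 to 4, and *Plac8* had 1, 3, 2 and 6 and then 2, 0, 3 and 0. *Chil3* and *Plac8* were thus highest in control replicate 4, at few counts, while *Ccr2* was lowest there among the controls.

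Markers of the tissue compartments that carry vessels were set beside the haemoglobin sum, library by library. Endothelial genes (13, led by *Flt1*, *Slco1a4* and *Cldn5*) summed to 11786, 11535, 12159 and 10743 counts in control replicates 1 to 4 and 12812, 10010, 9877 and 7800 counts in SAP97-cKO replicates 1 to 4. Control replicate 4 was the lowest control for this sum, whereas SAP97-cKO replicate 4 was the lowest library for both endothelial and haemoglobin counts. Of the 13 genes 0 passed by edgeR, 1 was lower at an unadjusted p under 0.05, and the median log2 difference was -0.19, and -0.22 without control replicate 4. Mural cell genes (9, led by *Rgs5*, *Vtn* and *Pdgfrb*) summed to 8456 to 9090 counts in control and 4882 to 8130 in SAP97-cKO. The groups thus did not overlap, which 5.26% of single genes tested also showed in that direction. By edgeR 0 of the 9 passed, 4 were lower at an unadjusted p under 0.05, and the median was -0.27, and -0.41 without control replicate 4.

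Choroid plexus genes (12, led by *Ttr*, *Enpp2* and *Kl*) summed to 69972, 379863, 220787 and 17641 counts in control replicates 1 to 4 and 37519, 126061, 70623 and 9256 counts in SAP97-cKO replicates 1 to 4. This sum differed widely between libraries within both groups, and control replicate 4, the highest library for haemoglobin, was the lowest control for choroid plexus, at 0.0789 times the mean of the other controls. None of the 12 passed by edgeR (0 at an unadjusted p under 0.05), with a median log2 difference of -1.49, and -1.85 without control replicate 4. Meningeal fibroblast genes (15, led by *Igf2*, *Dcn* and *Col1a2*) summed to between 13241 and 21779 counts in control and between 6924 and 11652 counts in SAP97-cKO. Of these 15 genes, 7 were lower by edgeR (*Col1a2*, *Col3a1*, *Ogn*, *Slc22a6*, *Slc6a13*, *Aldh1a2* and *Mgp*) and 0 higher, with a median of -1.001 (-1.01 without control replicate 4), and 3 were lower without control replicate 4; in the other lists 0 genes passed without that library. Control replicate 4 had the lowest meningeal sum among the controls by a small margin, with 13241 counts against 13247 in control replicate 1 and 13398 in control replicate 3. Of the 9 hippocampal neuron markers 0 passed by edgeR, 4 were higher at an unadjusted p under 0.05, and the median was 0.13, and 0.05 without control replicate 4. The part of vessel, choroid plexus and meningeal RNA in the differences of the globin genes was not tested.

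**Figure D3:**
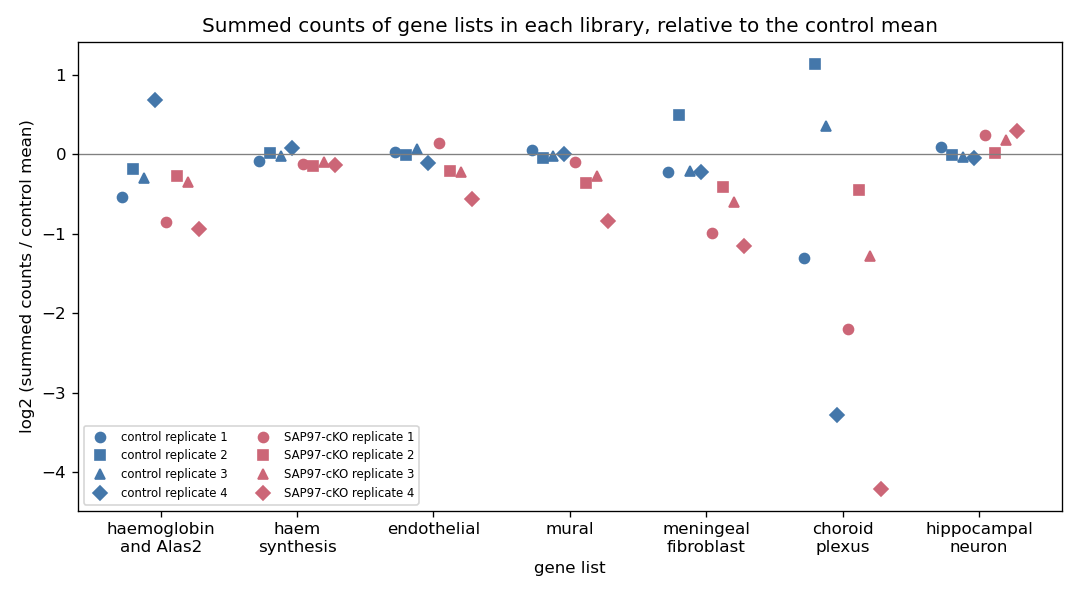
Summed counts of 7 gene lists (horizontal axis) in each library as log2 of the ratio to the control mean of that list (vertical axis), controls in blue, SAP97-cKO in red and symbols for replicate numbers. Control replicate 4 is the highest library for haemoglobin and Alas2 and the lowest control for choroid plexus (17641 counts), and endothelial and neuronal sums vary less between libraries.

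Among 16246 other genes tested, the 8 whose log2 CPM followed the mean standardised profile of the 5 genes most closely over the 8 libraries were *Unc5cl*, *Akr1b8*, *Elof1*, *Cyp4f15*, *Tsg101*, *Casp1*, *Jph2* and *Zfp2*, with Pearson's r between 0.953 and 0.970, and between 0.83 and 0.93 without control replicate 4. *Casp1* (caspase-1, an inflammatory protease) had 43, 57, 56 and 118 counts in control replicates 1 to 4 and 34, 63, 38 and 25 counts in SAP97-cKO replicates 1 to 4. Control replicate 4 had the highest counts of *Casp1*, as for the globin genes, and SAP97-cKO replicate 2 was above control replicates 1 to 3. The excess of control replicate 4 over the mean of the other controls was 2.27 times for *Casp1* but 1.18 times for *Tsg101*, since likeness was measured on standardised values. *Unc5cl* had between 7 and 22 counts and *Akr1b8* between 13 and 38, so counting error is a large part of their values. None of the 8 passed by edgeR (adjusted p between 0.447 and 0.616), and r was above 0.9 for 88 of the 16246 genes.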

How the data were processed

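Hippocampal RNA of 4 control and 4 SAP97-cKO libraries was sequenced. Per the study's methods and the submitters' processing notes, STAR 2.5.3a aligned the reads to the mouse build mm10 (GRCm38.p5), and PORT took out reads from ribosomal RNA and mitochondrial DNA and resampled the rest to equal depth before the authors deposited counts for Ensembl genes. In these counts 15 mitochondrial genes still held 3.73% to 4.93% of each library. Whether counting used strand and how reads shared by copies were counted are not given in the sources used here. Columns of the authors' own comparison (log fold change, limma-voom p-value and adjusted value) were not used. Libraries held 37388177 to 37426572 counts, and counting error is a lower bound on the spread of low genes.

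Counts were fitted in edgeR 4.0.16 (R 4.3.3) after a filter on low counts (minimum count 10, minimum total 15; 9583 of 25834 genes removed) and TMM scaling (factors 0.964 to 1.03), with quasi-likelihood tests of SAP97-cKO against control, Benjamini-Hochberg adjustment over the 16251 genes tested and a false discovery rate of 0.25. For single genes (mean log2 of TMM-scaled CPM + 0.1) libraries were permuted exactly and two-sided. The planned permutation tests of the alpha to beta ratio and of the correlations were run, but their p are not reported, since each combines several genes that were chosen together with earlier results known. Lengths, coordinates and coding sequences came from GENCODE M21 (25696 of 25834 identifiers matched), promoters from RefSeq. The edgeR step was tested on simulated data. The alternatives were limma 3.58.1, DESeq2 1.42.0, other scalings and filters, a replicate block and leaving out each library. Leaving out control replicate 4 from the correlations and lists, and each library from the copy shares, was chosen after seeing the data.

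The named genes were the 5 genes, in each of 16 lists those past the threshold and the 3 with the highest mean CPM, the red cell defining genes, and the 8 most alike genes. *Hbb-y*, *Hbq1a*, *Hbq1b*, *Klf1*, *Nfe2*, *Tal1*, *Plac8* and *Alas1* fall outside that rule and were chosen after their values were seen. *Dlg1* is given as the targeted gene. Some genes that the rule names are not reported here. The members and lists were chosen with earlier results of these data known. The lists were the 5 genes, other globins, haem synthesis, erythroid transcription factors, red cell defining genes, red cell genes shared with brain cells, haemoglobin and haem clearance, neutrophil, platelet, lymphocyte, monocyte, endothelial, mural, choroid plexus, meningeal fibroblast and hippocampal neuron.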

Additional observations from a re-analysis of the deposited data

Results flagged for a closer look

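In 4 of 62 groups of 4 libraries that were checked, 1 library lay far from the other 3, measured as its gap to the nearest library divided by the range of the group; chance gives about 1 in 20 such groups. The quotient was 0.96 for the neutrophil sum in control, where control replicate 4 had 49 counts and the others 24 or 25, and 0.982 for the meningeal fibroblast sum in control, where control replicate 2 had 21779 counts and the others 13241 to 13398. It was 0.885 for the share of *Hba-a1* in alpha-globin counts in control, where control replicate 3 had 69.4% and the others 71.7% to 72.0%, and 0.848 for *Alas2* per 1000 haemoglobin counts in SAP97-cKO, where SAP97-cKO replicate 4 had 42.0 and the others 37.5 to 38.2. For the counts of the 5 genes themselves control replicate 4 did not reach the limit used, and its quotient was between 0.75 for *Hba-a1* and 0.809 for *Hbb-bs*.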

How the results depend on the processing

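Depth limits the precision of genes with few counts. The difference of each of the 5 genes was below 0 under all 75 alternative values, and 70 of the 75 stayed on the same side of the threshold; the summed haemoglobin difference was between -40.1 and -11.4 CPM under 10 alternatives. By edgeR 48 genes passed (46 lower, 2 higher), with 1139 lower and 768 higher at an unadjusted p under 0.05. The count was 1033 by DESeq2 (588 lower, 445 higher), 95 without scaling (94 lower, 1 higher), 104 without the filter and 0 at a false discovery rate of 0.05 (111 lower and 45 higher by DESeq2 at that rate). Leaving out single libraries gave between 0 genes (without control replicate 2, SAP97-cKO replicate 3 or SAP97-cKO replicate 4) and 1675 (without control replicate 1), with 711 without SAP97-cKO replicate 1. Of the 5 genes 2 passed by DESeq2, *Hba-a2* (-0.61) and *Hbb-bt* (-0.77), and between 0 and 3 with single libraries left out. Those fits gave log2 differences between -0.75 and -0.33 for *Hba-a2*, -0.69 and -0.21 for *Hbb-bs*, and -0.97 and -0.43 for *Hbb-bt*. Over all alternatives the adjusted p was between 0.208 and 0.714 for *Hba-a2*, 0.246 and 0.728 for *Hbb-bs*, and 0.163 and 0.714 for *Hbb-bt*. The difference in alpha to beta ratio was between 0.0501 and 0.0774 with single libraries left out. Without control replicate 4, an alternative chosen after seeing the data, r was 0.777 for *Hba-a1* with *Hba-a2* and 0.743 for *Hba-a1* with *Hbb-bt*. The causes of these changes were not tested.

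With the replicate number as a block (replicate block), 256 genes passed (234 lower, 22 higher) and 0 of the 5. Deviations of same-numbered libraries correlated between -0.06 and 0.26, and control replicates 2, 3 and 4 correlated best with the SAP97-cKO library of their own number (0.20, 0.09 and 0.26), control replicate 1 with SAP97-cKO replicate 4 (0.26). The labels name no pairs, so the main fit has no block, and whether same-numbered libraries were handled together is not given.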
